A study of Mus musculus with 8 samples.

Results

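The interferon regulatory factor (IRF) genes studied here are Irf1, Irf2, Irf3, Irf4, Irf5, Irf7, Irf8 and Irf9, followed through the open chromatin regions around them in mouse macrophages. A region was counted for one of these 8 genes when the gene body was the nearest protein-coding gene body on build GRCm38, within 100 kb. This gave 69 of the 87260 regions obtained by merging the peaks of all 8 libraries where they overlapped by at least 1 base. The assay was ATAC-seq: a transposase cuts accessible DNA and inserts sequencing adapters there. The macrophages were grown from bone marrow for 7 days in 25% medium conditioned by L929 cells, a fibroblast line that secretes the growth factor M-CSF. The 4 groups were Nfat5 KO with LPS, wild type (WT) with LPS, untreated Nfat5 KO and untreated WT, with 2 libraries each, described in the series as biological replicates. LPS, a cell wall component of Escherichia coli, was given at 0.3 ng/ml for 2 h. Nfat5 encodes a transcription factor of the osmotic stress response. The labels state neither the age and strain of the mice nor which part of the gene was deleted.

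IRF proteins bind DNA through a shared domain that reads GAAA repeats, the core of the interferon-stimulated response element (ISRE). IRF3 and IRF7 are activated by phosphorylation downstream of receptors for microbial molecules and switch on the type I interferon genes, and IRF5 acts downstream of Toll-like receptors on inflammatory cytokine genes. IRF1 is induced by interferon and by inflammatory signals, IRF2 competes with it for the same sites, and IRF9 is the DNA-binding part of the complex that carries the type I interferon signal to the nucleus. IRF4 and IRF8 act in blood cells, where they bind DNA together with PU.1, and IRF8 directs the development of monocytes and some dendritic cells.

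The promoters of 4 of these genes are printed because they span the range of coverage by peaks: Irf1 and Irf2 were covered in every library, Irf8 in some, and Irf5 in none. Each sequence is taken from RefSeq on GRCm38.p6, plus strand, 5′ to 3′, and runs from 250 bases before the annotated start site to 50 after it. Capitals mark matches to the ISRE letters GAAA NN GAAA, the STAT-binding GAS letters TTCNNNGAA, the NF-kB letters GGG NN TTN CC and the PU.1 letters GAGGAAG (N is any base), searched on both strands; none of the marked matches overlap. The AP-1 letters TGANTCA were searched too and had no match in the 11 promoters of the 8 genes, against 7.81% of all promoters. The NFAT core TGGAAA, left unmarked, matched in the promoters of Irf1 and Irf2 only, where 21.4% of all promoters hold it, and in that of Irf2 it overlaps the NF-kB letters.
Irf1, chr11:53769764-53770063: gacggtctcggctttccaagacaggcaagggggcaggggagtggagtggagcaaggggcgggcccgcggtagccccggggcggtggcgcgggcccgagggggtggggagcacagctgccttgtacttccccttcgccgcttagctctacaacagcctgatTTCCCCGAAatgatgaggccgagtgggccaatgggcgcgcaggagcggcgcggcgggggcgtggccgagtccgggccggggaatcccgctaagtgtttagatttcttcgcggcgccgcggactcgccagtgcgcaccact
Irf2, chr8:46739495-46739794: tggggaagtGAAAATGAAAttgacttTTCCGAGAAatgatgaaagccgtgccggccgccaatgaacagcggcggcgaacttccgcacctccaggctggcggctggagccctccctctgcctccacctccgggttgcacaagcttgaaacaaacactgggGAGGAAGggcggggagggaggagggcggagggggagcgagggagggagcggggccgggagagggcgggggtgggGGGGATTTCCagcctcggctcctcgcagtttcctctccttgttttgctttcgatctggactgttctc
Irf8, chr8:120736108-120736407: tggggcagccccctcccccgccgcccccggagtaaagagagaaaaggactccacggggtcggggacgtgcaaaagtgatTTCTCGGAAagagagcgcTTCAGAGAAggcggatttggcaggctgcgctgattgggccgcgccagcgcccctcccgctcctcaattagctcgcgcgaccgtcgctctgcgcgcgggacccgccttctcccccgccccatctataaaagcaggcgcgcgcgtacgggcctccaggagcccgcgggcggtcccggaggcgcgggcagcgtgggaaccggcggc
Irf5, chr6:29526375-29526674: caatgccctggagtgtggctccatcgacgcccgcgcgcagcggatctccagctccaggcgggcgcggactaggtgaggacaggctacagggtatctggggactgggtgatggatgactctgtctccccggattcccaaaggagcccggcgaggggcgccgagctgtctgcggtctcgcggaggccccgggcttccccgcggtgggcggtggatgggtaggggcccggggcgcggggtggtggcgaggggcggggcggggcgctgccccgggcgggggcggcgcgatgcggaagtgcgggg
The GAS letters stood once in the Irf1 promoter (TTCCCCGAA), once in that of Irf2 (TTCCGAGAA) and at 2 places in that of Irf8 (TTCTCGGAA and TTCAGAGAA), which makes 3 of the 11 promoters, against 8.3% of 32851 promoters in the table. The Irf2 promoter also held the ISRE letters, found in 3.44% of all promoters, the NF-kB letters, found in 4.79%, and the PU.1 letters, found in 13.6%. The Irf5 promoter held none of these letters, and 74.7% of its bases are G or C. A match describes letters only and is not shown to be a bound site. The Irf2 promoter was covered by peaks to 100% in all 8 libraries and the Irf1 promoter to between 90.0% and 100%. The Irf8 promoter was covered to 0%, 59.0%, 87.0% and 71.0% in the LPS libraries and to 0%, 75%, 79.3% and 69.7% in the untreated ones, each in the order KO library 1 and 2, WT library 1 and 2. No library had a peak over the Irf5 promoter.

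The lists held 54027 to 57691 peaks with LPS and 56346 to 60117 without, and covered 26.2 to 28.0 Mb with LPS and 29.6 to 31.2 Mb without. Peak lists hold no read counts, so the depth is unknown and no counting interval could be given. Absence from a list means no call and does not show closed chromatin, and fewer cells with open chromatin cannot be told apart from less opening per cell. All 10 macrophage marker genes examined, among them Csf1r, Adgre1 and Spi1, had a peak within 1 kb of the gene body in every library. At the start site, 4 of the 10 had a peak in every library. Another 5, among them Csf1r, Adgre1 and Spi1, had no start site peak in any library. Within 1 kb of the gene body, the T cell markers Cd3e, Cd3g and Cd8a had no peak in any library. The same held for the B cell marker Pax5 and the erythroid factor Gata1. In contrast, the erythroid factor Klf1, the B cell markers Ebf1 and Ms4a1 and the neutrophil marker S100a8 had at least 1 in all 8. No T cell marker did. Of the dendritic cell markers, 3 of 6 had a peak in every library; the whole list held 11 to 14 peaks with LPS and 12 to 15 without. The 6 neutrophil markers held 2 peaks in every LPS library and 2 to 3 in the untreated ones. The T cell list held 0 to 3 peaks with LPS and 2 to 4 without, and the B cell list 2 to 6 with LPS and 5 to 7 without. The 4 erythroid markers held 1 to 2 peaks in each treatment, and the 6 fibroblast markers 4 to 8 with LPS and 4 to 6 without, with 2 of the 6 open in every library. The part of these other cell types in the results was not tested.

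Many of the Irf regions were called in every condition. Of the 69 regions, 32 (46.4%) were called in all 8 libraries, where 41.3% of all regions were, and 9 (13%) in a single library, where 20.1% of all regions were. Irf2 had 25 regions, 15 of them called in all 8 libraries, Irf8 had 17 with 7, Irf1 had 9 with 3, Irf4 had 7 with 2 and Irf5 had 6 with 2. Irf3 and Irf7 had 2 regions each and Irf9 had 1, in gene-dense surroundings where 16 regions lay within 100 kb of each of these 3 genes but most were closer to another gene. A peak overlapped the annotated start site of every gene except Irf5, and for Irf8 only in 6 of the 8 libraries. The farthest region lay 51.0 kb from its gene (Irf8), and none between 100 and 200 kb had an Irf gene as its nearest, so the distance limit excluded nothing.

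Where an Irf region was called in every library, its peak was about as often narrower as wider with LPS. Of these 32 regions, 17 (53.1%) had a lower mean width with LPS than without, where 72.3% of all 36009 such regions did. Their median difference was -7.88 bases, against -43.5 bases over all such regions. The median width of these 32 peaks was 488.5 to 557.5 bases in the LPS libraries and 544 to 580 bases in the untreated ones. The KO LPS libraries were the lowest of the 4 groups, at 496 and 488.5 bases. They were also the lowest over all 36009 such regions, at 530 and 517 bases. Between genotypes, 21 of the 32 regions (65.6%) had a lower mean width in KO than in WT, where 58.1% of all such regions did.

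Each library had 1 peak in every Irf region it called, so the width of that peak is given as the measure of a region. Within a genotype, "gained" means called in the LPS pair of libraries and absent from the untreated pair, and "lost" means the opposite. With 2 libraries against 2 an exact permutation test cannot give a p below 0.333, so these counts were not tested. In KO macrophages 1 Irf region was gained, as were 2.56% of all regions, and 2 were lost, as were 4.07% of all regions. In WT macrophages 2 were gained, as were 3.96% of all regions, and 5 were lost, as were 5.06% of all regions. These counts amount to 1.45% and 2.90% of the 69 regions in KO and 2.90% and 7.25% in WT, which is near the share of all regions. Shared by both genotypes were 1 gained region, at Irf3 (1.1% of all regions were gained in both), and 2 lost regions, both inside Irf8 (0.928% of all regions were lost in both).

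**Figure D1:**
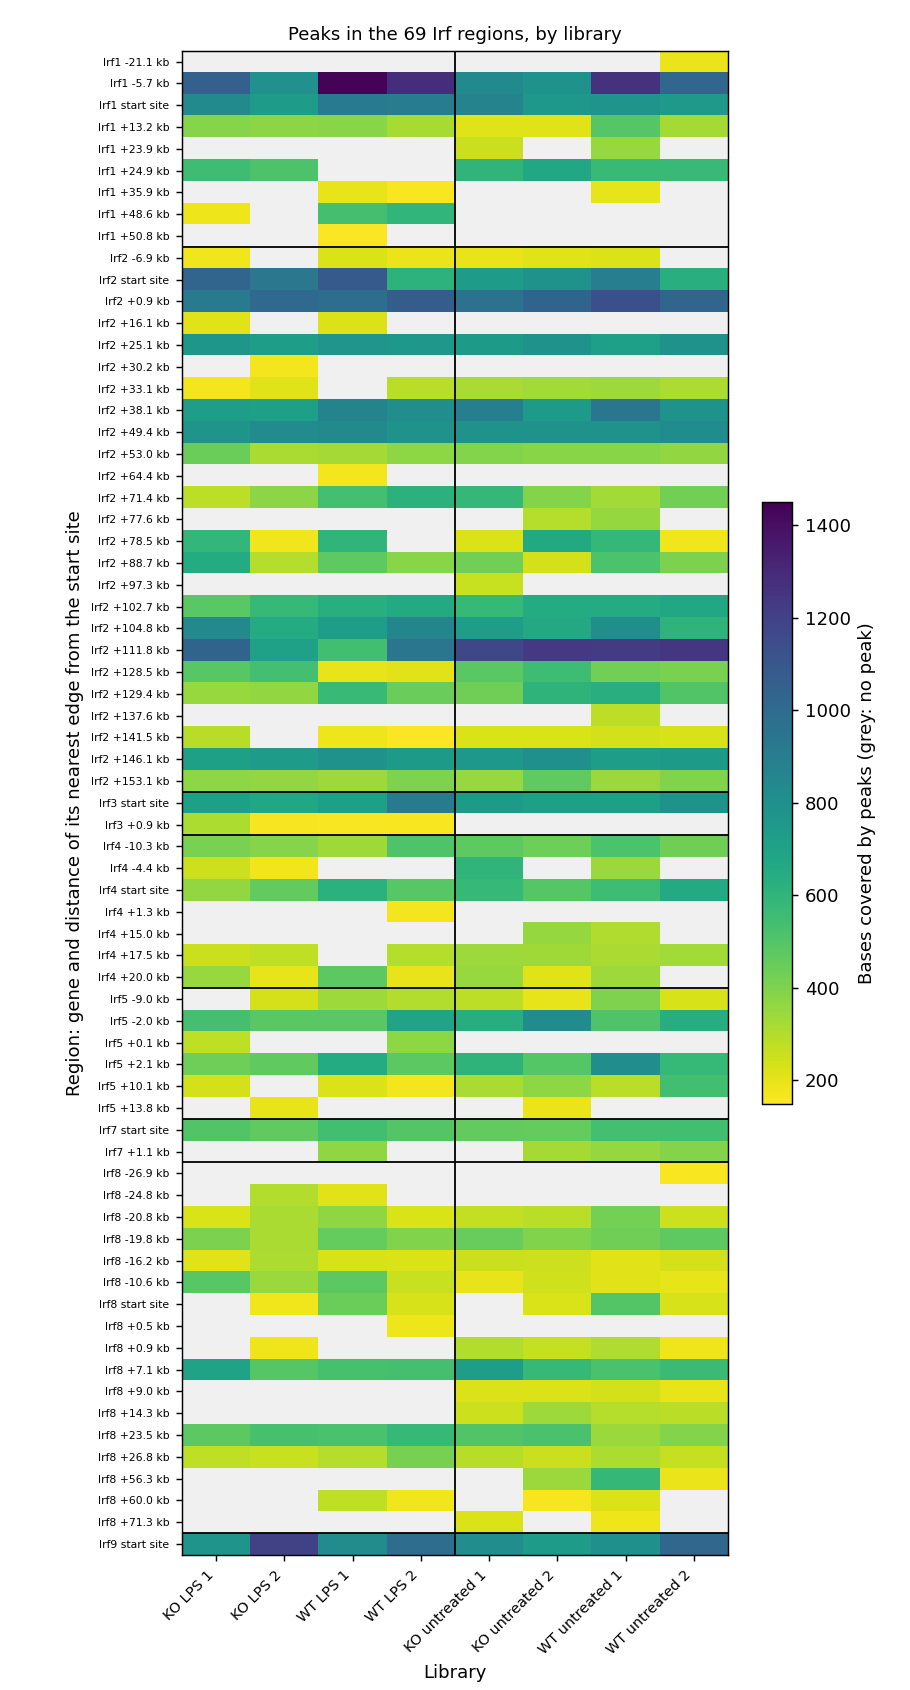
Bases covered by peaks in each of the 69 regions (rows, grouped by gene and labelled by distance from the start site in kb, downstream positive) in the 8 libraries (columns). Grey cells have no peak; the Irf8 rows at +9.0 and +14.3 kb are filled in all 4 untreated libraries only, and the Irf3 row at +0.9 kb in all 4 LPS libraries only.

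Of the 8 Irf genes, Irf3 was the only one with a region gained in both genotypes. This region lies inside the gene (chr7:44998525-44998840, 0.877 kb downstream of the start site). Its peak was 309 and 169 bases wide in the KO LPS libraries and 162 and 161 bases wide in the WT LPS libraries, and no untreated library of either genotype called it. The groups do not overlap, but 3 of the 4 peaks are close to the narrowest peak of any list, which was 156 to 174 bases wide. The mean was 200.25 ± 72.6 bases with LPS and 0 in untreated libraries (SD, n = 4; two-sided exact permutation p = 0.0286, the smallest that 70 arrangements can give, adjusted p = 0.270 over 87260 regions). A region called in every LPS library and in no untreated one always gives this p, so the test adds nothing to the calls. With every list held to the 54027 widest peaks, this Irf3 region no longer counted as gained in WT. The other Irf3 region overlaps the start site and also Bcl2l12, a gene of the BCL2 family, so it belongs to both genes (chr7:44997166-44998137). It was called in all 8 libraries, with 712 and 674 bases in KO LPS, 716 and 917 in WT LPS, 740 and 710 in KO untreated and 712 and 782 in WT untreated. The LPS and untreated ranges overlap, while both KO LPS peaks were narrower than both WT LPS peaks, by 4 bases at the closest.

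Irf7, which amplifies the interferon response, had its start site peak in every library (chr7:141265995-141266569). It was 502 and 468 bases wide in KO LPS, 544 and 498 in WT LPS, 463 and 457 in KO untreated and 536 and 546 in WT untreated, and LPS and untreated values overlap. By genotype it was 472.5 ± 20.2 bases wide in KO and 531 ± 22.4 in WT (SD, n = 4; exact permutation p = 0.0571, adjusted p = 1). A second region 1.12 kb into the gene (chr7:141264914-141265305) was called in no KO LPS library, in WT LPS library 1 (364 bases), in untreated KO library 2 (323 bases) and in both untreated WT libraries (354 and 392 bases). It therefore met neither rule for a lost region.

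Irf5 was the only gene with no peak over its start site; a narrow region 0.078 kb downstream of it (chr6:29526703-29527074) was called in KO LPS library 1 (273 bases) and WT LPS library 2 (370 bases) and nowhere else. The wider peaks lay on both sides, at -2.02 kb (chr6:29523757-29524603) and at +2.13 kb (chr6:29528752-29529566), and were called in all 8 libraries. The upstream peak was 532 and 483 bases wide in KO LPS and 483 and 692 in WT LPS, against 639 and 820 in untreated KO and 507 and 640 in untreated WT. The downstream one was 438 and 466 bases wide in KO LPS and 651 and 477 in WT LPS, against 602 and 491 in untreated KO and 809 and 577 in untreated WT. LPS and untreated ranges overlap at both, and the KO LPS peaks were the narrowest downstream. Inside the gene, a region at +10.1 kb (chr6:29536700-29537254) had 233 and 0 bases in KO LPS and 217 and 173 in WT LPS, against 314 and 370 in untreated KO and 284 and 544 in untreated WT. Every LPS value of that region lies below every untreated one (exact permutation p = 0.0286, adjusted p = 0.270, n = 4).

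Irf1 held 2 of the 4 Irf regions called in only one genotype after LPS, both downstream of the gene. Its start site peak (chr11:53769671-53770650) and a wide region 5.71 kb upstream (chr11:53762854-53764304) were called in every library. The upstream peak was 1049 and 794 bases wide in KO LPS and 1439 and 1278 in WT LPS, against 829 and 789 in untreated KO and 1263 and 1022 in untreated WT. Each LPS peak was wider than the untreated peak of the same genotype and replicate number, but the ranges of the 4 LPS and 4 untreated libraries overlap (exact permutation p = 0.343, adjusted p = 0.835, n = 4). The KO peaks were 865 ± 124 bases wide and the WT peaks 1250.5 ± 172 bases (SD, n = 4; exact permutation p = 0.0571, adjusted p = 1).

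Farther downstream of Irf1, a region at +24.9 kb (chr11:53794879-53795557) was 552 and 511 bases wide in KO LPS and was called in neither WT LPS library. In the untreated libraries it was 601 and 671 bases wide in KO and 575 and 570 in WT. It was thus lost with LPS in WT and called in KO but not WT after LPS. All LPS values lie below all untreated ones (exact permutation p = 0.0286, adjusted p = 0.270, n = 4), and the difference between the genotypes was not tested. A region at +48.6 kb (chr11:53818652-53819244) was 185 and 0 bases wide in KO LPS and 533 and 593 in WT LPS, and no untreated library called it, so it was gained in WT. Another at +35.9 kb (chr11:53805878-53806127) was called in both WT LPS libraries, at 199 and 163 bases, in untreated WT library 1 at 198 bases and in no KO library. This region did not count as called only in WT after LPS at equal list lengths, whereas those at +24.9 and +48.6 kb kept their calls there.

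**Figure D2:**
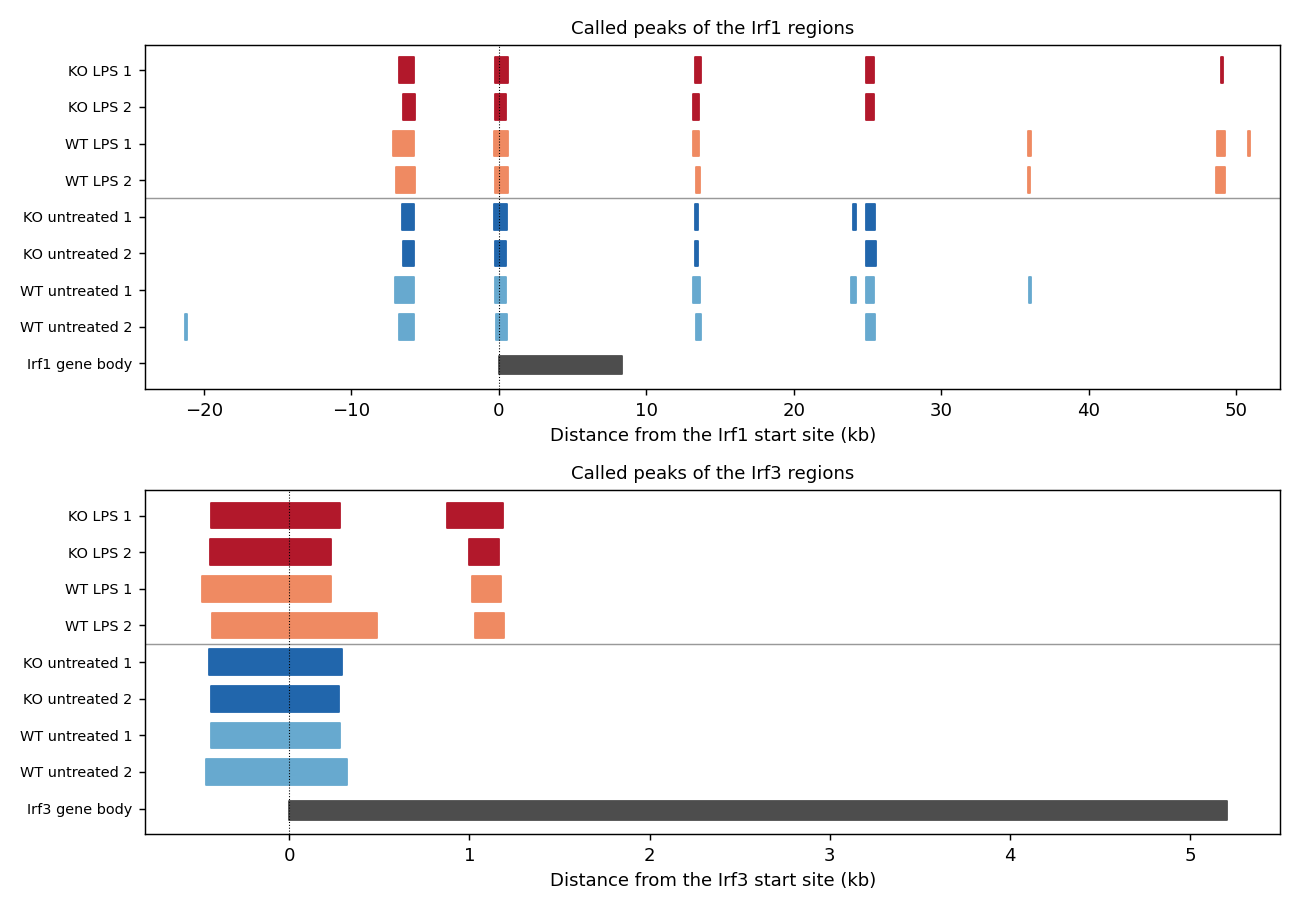
Called peaks (bars, to scale) of the Irf1 regions (top) and the Irf3 regions (bottom) against the distance from each start site in kb, with 1 lane per library and the gene body below. The Irf1 peak at +24.9 kb is missing from both WT LPS lanes, and the Irf3 peak at +0.9 kb is present in the 4 LPS lanes only.

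Irf2, the antagonist of IRF1, had no region gained or lost in either genotype, where each pattern took 2.56% to 5.06% of all regions. Its start site peak (chr8:46739249-46740341) was 1028 and 934 bases wide in KO LPS, 1082 and 610 in WT LPS, 734 and 781 in KO untreated and 895 and 637 in WT untreated. The LPS and untreated values overlap. Among the regions that differed by treatment, one lay 4.05 kb past the end of the gene (chr8:46851510-46852772), where the peak was 1030 and 707 bases wide in KO LPS and 542 and 938 in WT LPS. It was 1167 and 1234 bases wide in untreated KO and 1225 and 1246 in untreated WT, so all LPS peaks were narrower (804 ± 221 against 1218 ± 35.1 bases, SD, n = 4; exact permutation p = 0.0286, adjusted p = 0.270). A region inside the gene at +33.1 kb (chr8:46772800-46773152) had the same order, at 174 and 213 bases in KO LPS and 0 and 285 in WT LPS, against 315 and 331 in untreated KO and 341 and 310 in untreated WT. At +128 kb from the start site (chr8:46868208-46868836) the order followed genotype instead, with 490, 538, 481 and 554 bases in KO and 193, 208, 428 and 413 in WT, LPS libraries first in each. Every KO value there lies above every WT one (exact permutation p = 0.0286, adjusted p = 0.983, n = 4).

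The Irf8 gene body held fewer called peaks with LPS in both genotypes, while 4 of the 6 regions upstream of it were called in all 8 libraries. At +9.0 kb inside the gene (chr8:120745362-120745608), no LPS library had a peak, and the untreated libraries had peaks of 221 and 220 bases in KO and 235 and 198 in WT. At +14.3 kb (chr8:120750700-120751055), again no LPS library had a peak, and the untreated libraries had 251 and 340 bases in KO and 293 and 287 in WT. For both regions the groups do not overlap (exact permutation p = 0.0286, adjusted p = 0.270, n = 4), which follows from the calls and adds nothing to them. Both still counted as lost in both genotypes when each list was held to the 54027 widest peaks, and neither did when it was held to the widest 27013. Another region at +0.936 kb (chr8:120737294-120737625) was called in KO LPS library 2 only among the LPS libraries (182 bases), and in all untreated ones, with 300 and 263 bases in KO and 307 and 185 in WT. It was lost in WT by the rule, but no longer so at equal list lengths.

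The region between these, at +7.10 kb (chr8:120743453-120744176), was called in all 8 libraries, with 703 and 494 bases in KO LPS, 527 and 535 in WT LPS, 719 and 578 in KO untreated and 523 and 562 in WT untreated. Peaks thus covered 3.46% and 3.42% of the Irf8 gene body in KO LPS and 2.65% and 3.86% in WT LPS, against 7.33% and 7.07% in untreated KO and 8.20% and 6.41% in untreated WT. The mean was 3.34 ± 0.507% with LPS and 7.25 ± 0.741% in untreated libraries (SD, n = 4; by the exact permutation test p was 0.0286, and 0.227 after adjustment over 15150 genes). Of all gene bodies, 10.9% had every LPS library below every untreated one, and 1.72% above, as that of Irf3 had. None of the 8 gene bodies separated by genotype, as 0.878% of all did with KO above WT and 3.69% with KO below. The LPS lists covered less sequence in all. The part of this in the gene body share of Irf8 was not tested, since the equal list lengths above concern the calls of its regions.

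Outside the gene, Irf8 had 1 region where every LPS peak was wider, at -10.6 kb (chr8:120725183-120725723). It was 490 and 347 bases wide in KO LPS and 480 and 259 in WT LPS, against 193 and 243 in untreated KO and 207 and 198 in untreated WT (394 ± 111 against 210.25 ± 22.6 bases, SD, n = 4; exact permutation p = 0.0286, adjusted p = 0.270). Each LPS peak exceeds each untreated one. Far downstream, at +56.3 kb (chr8:120792628-120793218), no LPS library had a peak, while untreated KO library 2 had 343 bases and the untreated WT libraries 583 and 189. This region was lost in WT and not in KO, where untreated library 1 had no peak either, and it did not count as lost in WT at equal list lengths or when peaks had to cover 50% of the region. Enhancers that act on Irf8 from downstream are known in mouse myeloid cells, and whether this region is one of them was not tested. At +60.0 kb (chr8:120796335-120796643) both WT LPS libraries had a peak (272 and 176 bases) and no KO LPS library did, while untreated KO library 2 (168 bases) and untreated WT library 1 (218 bases) also had one.

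**Figure D3:**
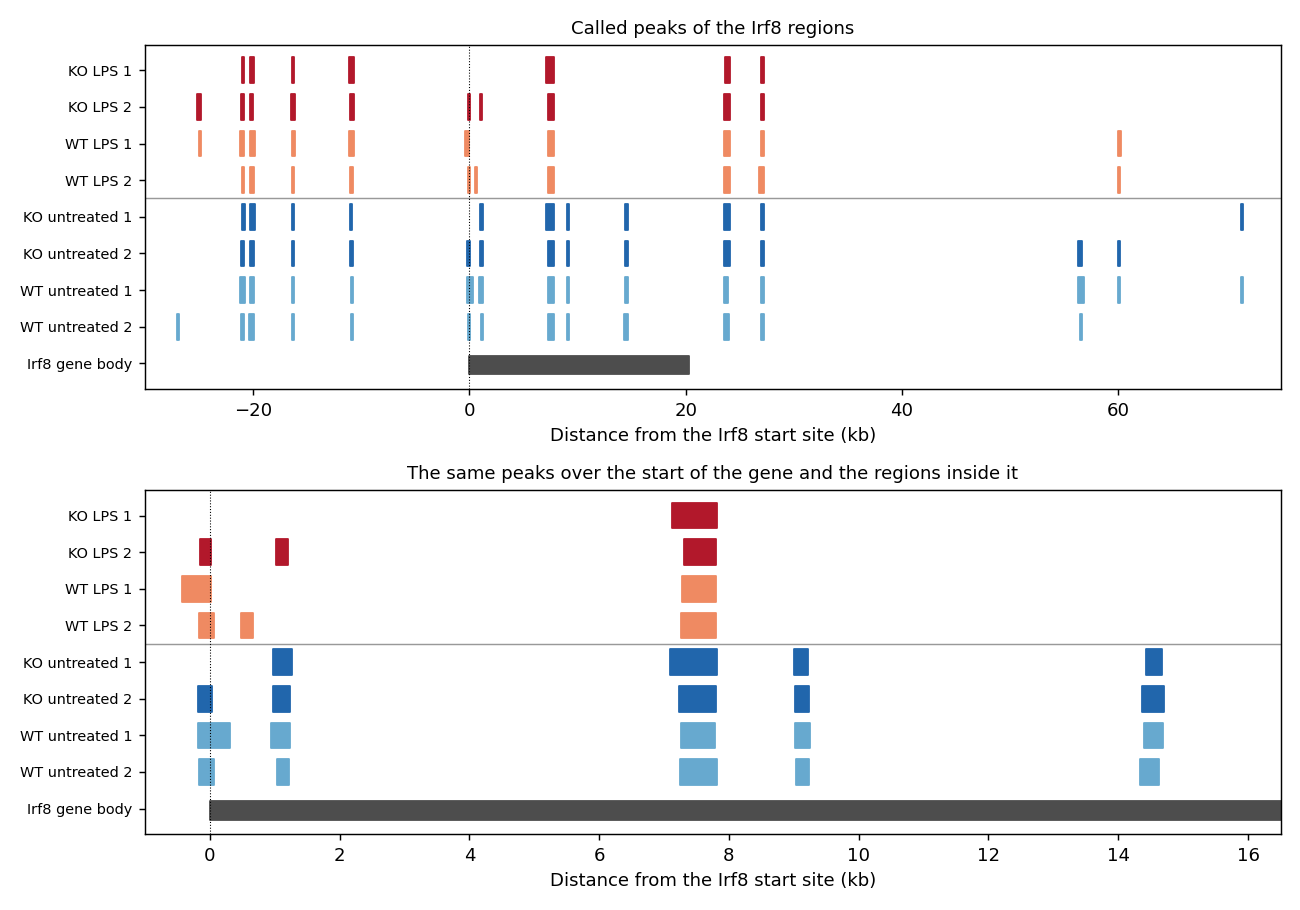
Called peaks (bars, to scale) of the Irf8 regions against the distance from the Irf8 start site in kb, over all regions (top) and over the gene (bottom), with 1 lane per library. The peaks at +9.0 and +14.3 kb appear in the 4 untreated lanes and in no LPS lane, while the peak at +7.1 kb is in all 8.

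**Figure D4:**
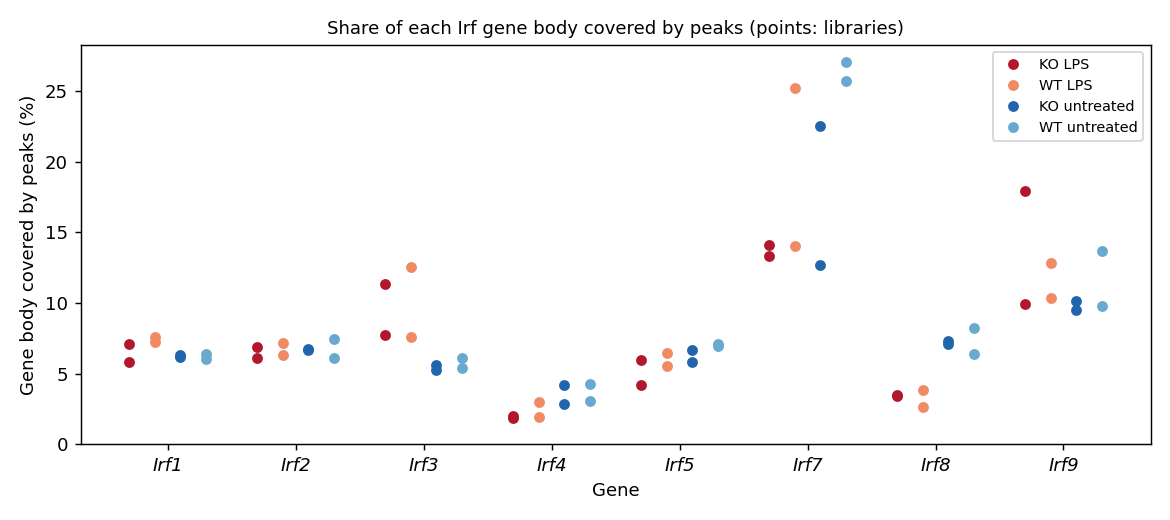
Percentage of each Irf gene body covered by called peaks, with 1 point per library and the groups side by side. For Irf8 the LPS libraries lie between 2.65% and 3.86% and the untreated ones between 6.41% and 8.20%; for Irf3 the LPS libraries lie above the untreated ones.

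Irf4, the relative of IRF8 that acts in alternatively activated macrophages and lymphocytes, had start site peaks of 362 and 460 bases in KO LPS, 618 and 487 in WT LPS, 578 and 492 in KO untreated and 552 and 654 in WT untreated (chr13:30748927-30749580). Both KO LPS peaks were narrower than every other peak, and the 4 LPS and 4 untreated values overlap. A region across the far end of the gene (chr13:30766775-30767140) had 254 and 275 bases in KO LPS and 0 and 296 in WT LPS, against 340 and 336 in untreated KO and 315 and 330 in untreated WT, so every LPS value lay below every untreated one (exact permutation p = 0.0286, adjusted p = 0.270, n = 4). At -4.38 kb (chr13:30744116-30744851) both KO LPS libraries had a peak (249 and 178 bases) and no WT LPS library did, but untreated KO library 1 (599 bases) and untreated WT library 1 (344 bases) had one as well.

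Irf9 had a single region, over its start site (chr14:55603778-55605069), called in all 8 libraries. It was 775 and 1196 bases wide in KO LPS, 823 and 985 in WT LPS, 811 and 731 in KO untreated and 797 and 1022 in WT untreated. LPS and untreated values overlap, as do KO and WT values; both untreated KO peaks were narrower than both WT LPS peaks.

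Counted over the 69 regions, every LPS library lay below every untreated one at 8 regions (11.6%), where 7.59% of all regions did, and above at 2 (2.90%), where 3.01% did. The 8 were at Irf1, Irf2 (2), Irf4, Irf5 and Irf8 (3), and the 2 at Irf3 and Irf8. At each of them the exact permutation p of 0.0286 follows from the separation alone and adds nothing to it. No region in the genome passed the adjustment over 87260 regions by the exact permutation test; without adjustment p was below 0.05 at 9247 regions, 10 of them at Irf genes.

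Calls differed between the genotypes at few Irf regions, as they did at few of all regions. Among untreated macrophages no Irf region was called in both KO libraries and neither WT one, as were 1.6% of all regions, and none in the reverse case, as were 2.23%. After LPS, 2 Irf regions were called only in KO, at Irf1 and Irf4 (2.9%, against 2.03% of all regions). Another 2 were called only in WT, at Irf1 and Irf8 (2.9%, against 3.17% of all regions). These counts are near the share of all regions and do not set the Irf genes apart. Over both treatments none was called in all KO and no WT libraries (0.147% of all regions) or in the reverse case (0.231%). By width, every KO library lay above every WT one at 1 region, at Irf2 (0.978% of all regions), and below at 1, at the Irf8 start site (1.93%). The Irf8 start site peak (chr8:120735928-120736667) was 0 and 177 bases wide in KO LPS and 441 and 228 in WT LPS, 0 and 225 in KO untreated and 498 and 231 in WT untreated. Neither library of KO replicate 1 had it, and the widest KO peak and the narrowest WT peak differ by few bases (exact permutation p = 0.0286, adjusted p = 0.983, n = 4).

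Summed over all regions of a gene, 5 of the 8 genes (Irf2, Irf4, Irf5, Irf7 and Irf8) had fewer covered bases on average with LPS, as did 76.2% of 17179 genes, and 3 (Irf1, Irf3 and Irf9) had more. Irf3 was the only one of the 8 whose libraries separated completely, with 955 ± 112 bases with LPS and 736 ± 33.6 bases in untreated libraries (SD, n = 4; exact permutation p = 0.0286, adjusted over all genes 0.184); 1.7% of all genes had every LPS library above every untreated one and 13.8% below. Irf8 had 3260 ± 415 bases with LPS and 4036 ± 526 in untreated libraries (exact permutation p = 0.0857, adjusted p = 0.304, n = 4). The LPS minus untreated difference was -870 bases in KO and -682.5 in WT for Irf8, 207 and 231 for Irf3, and -522.5 and -144 for Irf5. For Irf1 it was 103.5 bases in KO and 184.5 in WT. Over both genotypes at equal list lengths, the difference was 138 bases for Irf3 (exact permutation p = 0.0857, n = 4) and -451 for Irf8. With the 27013 widest peaks it was 18.8 bases for Irf3 and 319 for Irf8, and within 25 kb it was -264 for Irf1. Scaled to bases per Mb that each list covers, Irf8 had 119 ± 13.7 with LPS and 132 ± 15.4 in untreated libraries (SD, n = 4, exact permutation p = 0.286). Scaled in this way, Irf3 had 35.0 ± 3.83 and 24.1 ± 1.22 (SD, n = 4, exact permutation p = 0.0286). With the full lists and no scaling, no gene in the genome passed the adjustment, and 2662 had an unadjusted exact permutation p below 0.05.

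By genotype, 7 of the 8 genes had fewer covered bases on average in KO, as did 64.7% of all genes; Irf4 had more. The lowest p was that of Irf1, with 2651 ± 284 bases in KO and 3352 ± 373 in WT (SD, n = 4; exact permutation p = 0.0571, adjusted p = 0.663). The difference was -742 bases with LPS and -661 without. Irf7 followed, with 553 ± 152 bases in KO and 808.5 ± 208 in WT (n = 4; exact permutation p = 0.0857, adjusted 0.714). Not one of the 8 had all KO libraries above or below all WT ones, as 0.891% and 4.06% of all genes did. No gene in the genome passed, and 851 of the 17179 had an unadjusted exact p below 0.05. Every KO against WT test here, of genes or regions, counts the LPS and untreated libraries of a genotype as 4 separate units. If a replicate number marks a shared culture, each genotype has 2 units. An exact permutation test of 2 against 2 cannot give a p below 0.333. The KO lists covered 28.3 ± 1.96 Mb and the WT lists 29.4 ± 1.85 Mb (SD, n = 4). With every list held to its 54027 widest peaks the Irf1 difference was -524 bases (exact permutation p = 0.0857, n = 4) and the Irf7 difference stayed at -255.

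**Figure D5:**
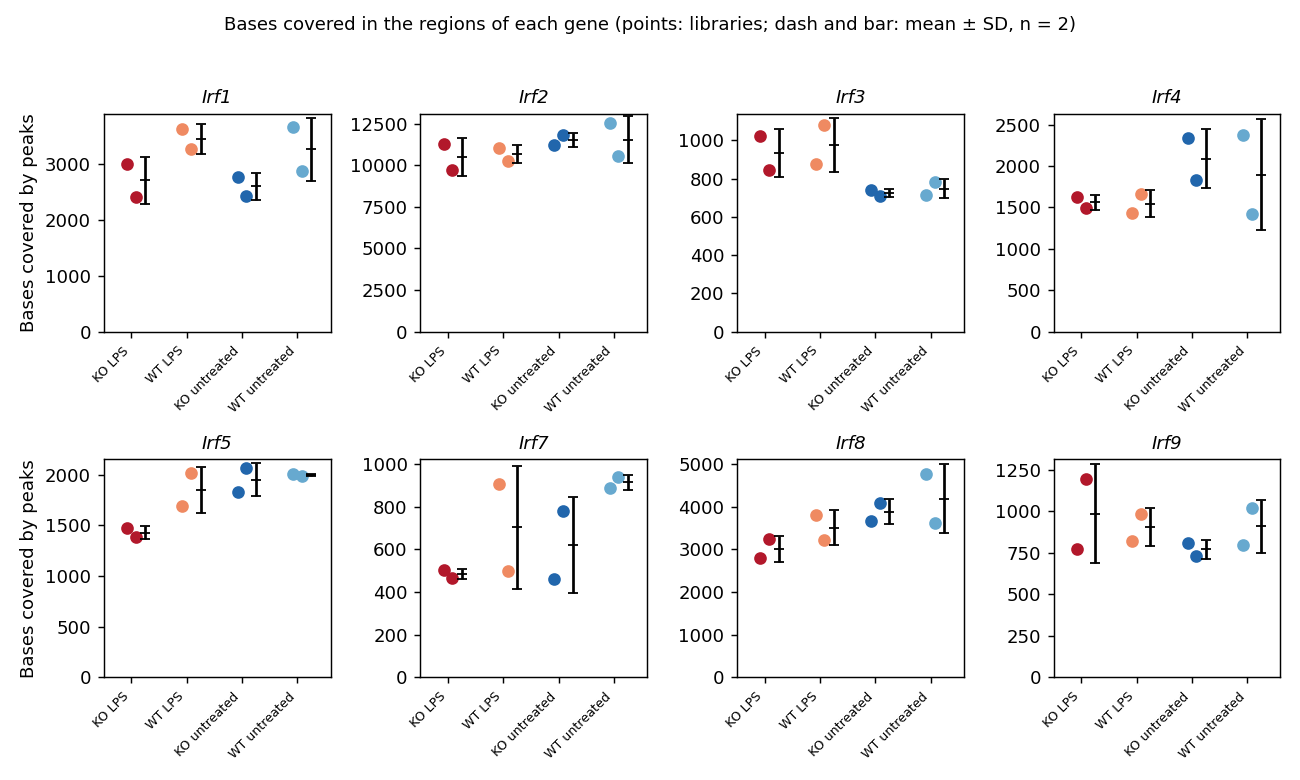
Bases covered by peaks in all regions assigned to each Irf gene, by group, with 1 point per library and the mean ± SD of the 2 libraries beside them. The Irf3 LPS libraries (843 to 1078 bases) lie above the untreated ones (710 to 782), and the groups of Irf1, Irf2, Irf4, Irf5, Irf7, Irf8 and Irf9 overlap between treatments.

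Set per length, the share of the gene body covered by peaks was highest for Irf7 and Irf9, short genes in which the start site peak takes a large part, and is given as the mean ± SD of 4 libraries. It was 16.7 ± 5.73% with LPS and 22.0 ± 6.49% in untreated libraries for Irf7, and 12.8 ± 3.69% with LPS and 10.8 ± 1.95% in untreated libraries for Irf9. Irf1 had 6.94 ± 0.791% with LPS and 6.22 ± 0.164% in untreated libraries, Irf2 had 6.63 ± 0.468% with LPS and 6.73 ± 0.539% in untreated libraries, and Irf5 had 5.55 ± 0.97% with LPS and 6.63 ± 0.577% in untreated libraries. Irf3 had 9.81 ± 2.50% with LPS and 5.61 ± 0.38% in untreated libraries, and Irf4 had 2.21 ± 0.526% with LPS and 3.59 ± 0.737% in untreated libraries. The order among Irf1, Irf2, Irf3, Irf5 and Irf8 depended on the treatment, since Irf8 had the lowest mean of these 5 with LPS and the highest without, and Irf3 the reverse.

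Genes whose covered bases followed a member most closely over the 8 libraries were sought among 8728 genes with at least 3 regions. For Irf8 they were Scube1, Arhgap28 and Lratd2, with Pearson's r of 0.988, 0.983 and 0.977. For Irf3 they were Riox2, Siglecg and Inhba (0.968, 0.953 and 0.952), and for Irf1 A1cf, Myo3b and Mov10 (0.979, 0.956 and 0.953). For Irf5 they were Snap47, Atf3 and Araf (0.993, 0.977 and 0.968). Of the 8728 genes, 96 had an r above 0.9 with Irf8, 75 with Irf5, 26 with Irf1 and 18 with Irf3. All genes share the 8 lists and their lengths, so these values are a description only.

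Other genes of the interferon pathway were counted in the same way, from a list of sensors, receptors, partners and targets. The list was chosen with earlier results of these data known, so its shares are a description and test nothing. Of 62 such genes, 58 matched the gene table and had 406 regions. In KO 23 of these were gained (5.67%, against 2.56% of all regions) and 11 lost (2.71%, against 4.07%). In WT 30 were gained (7.39%, against 3.96%) and 10 lost (2.46%, against 5.06%). In both genotypes alike, 16 regions at 12 genes were gained (3.94%, against 1.1% of all regions) and 1 was lost (0.246%, against 0.928%). The genes named next are those with such a region, and the counts given are of regions gained or lost in both genotypes. Among the upstream signalling genes, Tbk1, the kinase that phosphorylates IRF3, had a region inside the gene (chr10:121585806-121586435) of 314 and 255 bases in KO LPS and 595 and 522 in WT LPS, with no untreated peak. Tbk1 also lost 1 region in KO and had 1 called only in WT after LPS. Tlr4, which encodes the LPS receptor, gained a region of 444 and 597 bases in KO LPS and 605 and 406 in WT LPS.

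In the interferon receptor pathway, Usp18, an inhibitor of that receptor, gained a region over the gene (chr6:121250042-121250493), with 294 and 290 bases in KO LPS and 403 and 373 in WT LPS. Socs3, a feedback inhibitor, and Ifngr1, a receptor gene, gained a region each in both genotypes; Socs3 also lost 1 in KO and Ifngr1 lost 1 in WT. Jak1, the receptor kinase gene, had the only region of the list lost in both genotypes, inside the gene (chr4:101244430-101245114), with 682 and 292 bases in untreated KO and 631 and 177 in untreated WT. Among partners and corepressors, Ikzf1, a zinc finger factor of blood cells, gained 4 regions in both genotypes; in all it gained 4 and lost 2 in KO, and gained 6 and lost 1 in WT. Irf2bp2, which encodes a corepressor that binds IRF2, and its relative Irf2bpl gained 1 region each in both genotypes, and Irf2bp2 gained another and lost 1 in WT. Of the target genes, Ccl5, a chemokine gene, Cmpk2, an interferon-induced kinase gene, and Ciita, the activator of MHC class II genes, gained 1 region each in both genotypes, and the cytokine gene Il12b gained 2. Counted by genotype, Ccl5 gained 2 regions in KO and 2 in WT, Il12b gained 3 in KO, and Ciita and Il12b lost 1 each in WT. A gained region did not always go with more covered bases over the gene. Summed over all regions, the mean was lower with LPS for Tlr4, Ifngr1, Usp18, Irf2bp2 and Irf2bpl, as it was for 76.2% of all genes. For Tlr4 and Usp18 it was lower by little, at -11.75 and -132.5 bases (exact permutation p = 0.943 and 0.971, n = 4). The difference was -1382.5 bases for Ifngr1, -1260.75 for Irf2bp2 and -943.75 for Irf2bpl. The mean was higher with LPS for Tbk1, Socs3, Ikzf1 (1511), Ccl5 (1416), Cmpk2, Ciita and Il12b.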

How the data were processed

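ATAC-seq was done on 8 libraries in 4 groups of 2. The authors deposited 1 list of peak positions per library, a plain score-free list of start and end on GRCm38 (mm10), with peaks called in each library separately. MACS2 2.1.1, Picard and Bowtie2 2.3.0 are named in the submitters' processing notes. The calling threshold, the handling of duplicates and any shift of cut sites decide which weak peaks enter a list; the sources used here do not state them.

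Peaks were merged across lists (at least 1 base of overlap). Each region was assigned to the nearest of 21883 protein-coding gene bodies (RefSeq, GRCm38.p6) within 100 kb, and a tied region to each of its genes. The table gives no exons. Start sites came from the RefSeq promoter table (the first one listed). Covered bases per gene, per gene body and per region were compared 4 against 4 by an exact permutation test (two-sided, 70 arrangements), with Benjamini-Hochberg adjustment over all genes or regions, threshold 0.05. The smallest p this test can give is 0.0286, and no adjusted p passed. The test was checked on simulated data.

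The members, gene lists and tests were chosen with earlier results of these data known. All 8 members are named. Pathway genes are named where a region was gained or lost in both genotypes, and the 3 most alike genes per member are given for 4 members. Same-numbered libraries of a genotype deviated together from their group means over all regions (r = 0.147 in KO and 0.197 in WT, the same for both numbers), so the number was treated as pairing samples and used as a replicate block in 1 alternative; the numbers come from the labels, which do not say what they mark. Other alternatives were overlap, list length, distance, merging, ties, scaling and leaving out each library. Coordinates count from 1. Python 3.11.15, numpy 2.4.6, pandas 2.3.3 and matplotlib 3.10.9 were used.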

Additional observations from a re-analysis of the deposited data

Results flagged for a closer look

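One region stood out because LPS and untreated libraries lay in opposite order in the 2 genotypes. It lies inside Irf2, 71.4 kb downstream of the start site (chr8:46811194-46811810), and was called in all 8 libraries. Its peak was 281 and 378 bases wide in KO LPS, against 582 and 393 in untreated KO, and 536 and 617 bases wide in WT LPS, against 328 and 425 in untreated WT. The LPS minus untreated difference was -158 bases in KO and 200 bases in WT, which differ by -358 bases. This difference between the genotypes was not tested.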

How the results depend on the processing

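No covered-base difference of an Irf gene passed the adjusted threshold under any setting, and regions were tested in the reported setting alone, so the alternatives bear on directions and counts. Of 248 recomputed differences in covered bases, 225 kept their direction; the cause of the 23 that turned was not tested. The Irf3 difference between LPS and untreated libraries was 178 to 256 bases when each library was left out, and that of Irf8 -956 to -535. With the replicate block (paired signs, smallest p of 0.125) the difference was 219 bases for Irf3 and -776 bases for Irf8, each with an exact permutation p of 0.125. No call had passed without the block, so the block had none to change. It was run for LPS minus untreated, since the numbers pair libraries within a genotype.

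Requiring peaks to cover 50% of a region gave 3 regions gained and 4 lost in KO, 1 called only in WT when untreated and 5 only in WT after LPS. Equal list lengths gave 1 gained and 3 lost in WT, 1 called only in WT after LPS and 0 gained in both genotypes. Lists of the 27013 widest peaks gave 0 gained and 0 lost in KO, 1 lost in WT, 0 gained and 0 lost in both genotypes, 2 called only in KO when untreated, 1 only in KO in both treatments and 16 called in all 8 libraries. A limit of 25 kb gave 1 gained in WT and 0 called only in WT after LPS.

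Leaving out 1 library makes a group of a single list and loosens the rule. Counts were then 1 to 4 gained and 4 to 7 lost in KO, 2 to 6 gained and 7 to 11 lost in WT, and 1 to 2 gained and 2 to 3 lost in both. Regions called only in KO numbered 0 to 2 when untreated and 2 to 5 after LPS, and those only in WT 0 to 3 when untreated, 4 to 6 after LPS and 0 to 1 in both treatments. The 11 lost in WT came without WT untreated replicate 2, and the 7 lost in KO without KO untreated replicate 1.

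Differences that turned sign were these. At equal list lengths KO minus WT was 35.5 bases for Irf2 and 46.8 for Irf3. With the 27013 widest peaks LPS minus untreated was 117 bases for Irf7 and 319 for Irf8, and KO minus WT was -302 for Irf4. Within 25 kb LPS minus untreated was -264 bases for Irf1, and without the tied region KO minus WT was 38.8 for Irf3. Scaled to bases per Mb that each list covers, LPS minus untreated was 9.96 for Irf2, and KO minus WT was 11.2 for Irf2 and 0.497 for Irf9. As a percentage of the gene body, added after the data were seen, KO minus WT was -0.325 for Irf4, 0.0393 for Irf8 and 0.219 for Irf9. Leaving out a library gave -41.5 to 386 bases for LPS minus untreated at Irf1, negative without WT LPS replicate 1 or KO untreated replicate 2. It gave KO minus WT of -365 to 382 for Irf2, -98.2 to 37.8 for Irf3, -67.2 to 322 for Irf4 and -134 to 20.6 for Irf9. Of these, Irf2 turned without KO LPS replicate 2 or WT untreated replicate 1, Irf3 without WT LPS replicate 2 or KO untreated replicate 2, and Irf4 without KO untreated replicate 1. Irf9 turned without KO LPS replicate 1, KO untreated replicate 2 or WT untreated replicate 2.

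Peak lists without heights limit what can be seen: a narrow peak near the calling threshold counts as much as a strong one, and the depth behind the widths is unknown.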
